A study of Mus musculus with 12 samples.

Results

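The forkhead family is a group of transcription factors that bind DNA through a shared winged-helix domain. Its members were taken as every gene whose mouse symbol is Fox followed by a letter and a number, with pseudogene and antisense names left out. The deposited tables held 43 such genes among 22667 gene IDs. The symbol Foxl1 matched no ID in the tables, and Foxred1 and Foxred2, which encode oxidoreductases, were left out by the rule.

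The series profiled mRNA of E18.5 mouse brain by RNA sequencing. It set mice lacking functional Srrm4 (also called nSR100), a splicing regulator of neurons, against controls, in hippocampus and in cortex. There were 4 groups of 2 libraries: knockout (KO) hippocampus, control hippocampus, KO cortex and control cortex. In the KO, exons 7 and 8 of a conditional Srrm4 allele from EUCOMM had been excised by a Cre transgene under a cytomegalovirus promoter (B6.C-Tg(CMV-cre)1Cgn/J), which acts in all tissues, and the line was kept on C57Bl/6N. The controls were labelled wild type, with any transgene or conditional allele of theirs not given in the sources used here. Nothing in the labels says that libraries came from separate embryos, so the p-values measure only how far these libraries spread, and that spread may be technical.

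In the forkhead domain, the third helix lies in the major groove of DNA and makes most of the base contacts. Subfamilies differ in what they do: FoxP factors act mainly as repressors in forebrain neurons, FoxO factors are held in the cytoplasm by insulin and Akt signalling, FoxJ1 switches on genes of motile cilia, and FoxM1 drives genes of mitosis. The hippocampus forms beside the cortical hem, a signalling centre that makes Wnt and Bmp proteins and Cajal-Retzius cells.

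The coding runs of the recognition helix show how close these genes are to one another, which bears on whether reads can be told apart. A run of 45 bases was found in mouse GENCODE M21 transcripts for 36 of the 43 members. Those of 7 members whose levels differed between the tissues in both genotypes are given 5′ to 3′, with the 9 codons that end at the helix's conserved serine in capitals.
Foxp4: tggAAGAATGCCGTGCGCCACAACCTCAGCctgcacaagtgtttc
Foxj1: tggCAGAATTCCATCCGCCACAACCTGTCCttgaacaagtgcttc
Foxo1: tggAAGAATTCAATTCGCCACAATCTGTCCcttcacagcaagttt
Foxo4: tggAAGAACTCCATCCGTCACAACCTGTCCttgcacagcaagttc
Foxm1: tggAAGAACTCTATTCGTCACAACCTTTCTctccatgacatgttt
Foxn2: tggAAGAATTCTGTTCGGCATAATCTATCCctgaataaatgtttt
Foxn4: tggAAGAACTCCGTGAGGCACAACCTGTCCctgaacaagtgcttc

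Foxo1 and Foxo4 were alike at 37 of the 45 bases and at 22 of the 27 capitals, and Foxn2 and Foxn4 at 34 of the 45 bases. Over all 630 pairs of the 36 members the median was 33 bases alike, with a lowest pair at 24. Across whole protein-coding transcripts, the longest exact run that Foxo1 and Foxo3 shared was 38 bases, and that of Foxp1 and Foxp4 was 21 bases. Longer shared runs were found in other pairs: 41 bases in Foxf1 and Foxf2, 53 bases in Foxc1 and Foxc2, and 68 bases in Foxd3 and Foxd4. With read length and the treatment of reads that fit more than 1 gene not given in the sources used here, the levels of these pairs are less certain, above all the low ones of Foxf1 and Foxc2.

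Srrm4 itself followed the labels in all 8 libraries. It had 5.68 and 6.16 RPKM (reads scaled by gene length and by library depth) in KO hippocampus and 8.12 and 6.97 RPKM in KO cortex, against 26.03 and 27.86 RPKM in control hippocampus and 25.22 and 24.22 RPKM in control cortex. The libraries held 58210499 to 140052443 counts; each replicate 1 table joined 2 sequencing runs and was the deeper of its group. The tissue labels were checked on 8 hippocampal markers. Zbtb20 and Prox1, which mark hippocampal neurons, had 58.75 to 74.69 and 25.72 to 34.29 RPKM in hippocampus. In cortex these 2 genes had 9.25 to 11.49 and 3.52 to 4.81 RPKM. By the edgeR test described below, 5 of the 8 were higher and 3 lower in hippocampus in KO. In controls 5 were higher and 2 lower. The cortex libraries held RNA of striatal neurons. Summed over 14 striatal markers, they had 153 to 166 RPKM, against which the hippocampal libraries had 17.9 to 21.9 RPKM. Among the hippocampal libraries, KO replicate 1 had 4.40% of its counts in mitochondrial genes, against 3.14% to 3.44% in the other 7 libraries. Control hippocampus replicate 2 had 175 RPKM summed over 10 choroid plexus markers, where the other hippocampal libraries had 28.4 to 43.4 RPKM. Library values stand beside the members they touch. In bulk tissue, fewer cells of a type and less RNA per cell cannot be told apart.

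Of the 43 members, 18 reached a mean of 1 RPKM in at least 1 group, and 13 of these reached 10 RPKM. Another 11 were lower but had enough counts to be tested. The remaining 14 did not pass the filter on low counts: 12 had a few counts, at most 10 in any library, and Foxe3 and Foxd4 had none. The sum of all members was 310 and 370 RPKM in KO hippocampus, 333 and 348 RPKM in control hippocampus, 369 and 384 RPKM in KO cortex and 357 and 367 RPKM in control cortex.

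**Figure D1:**
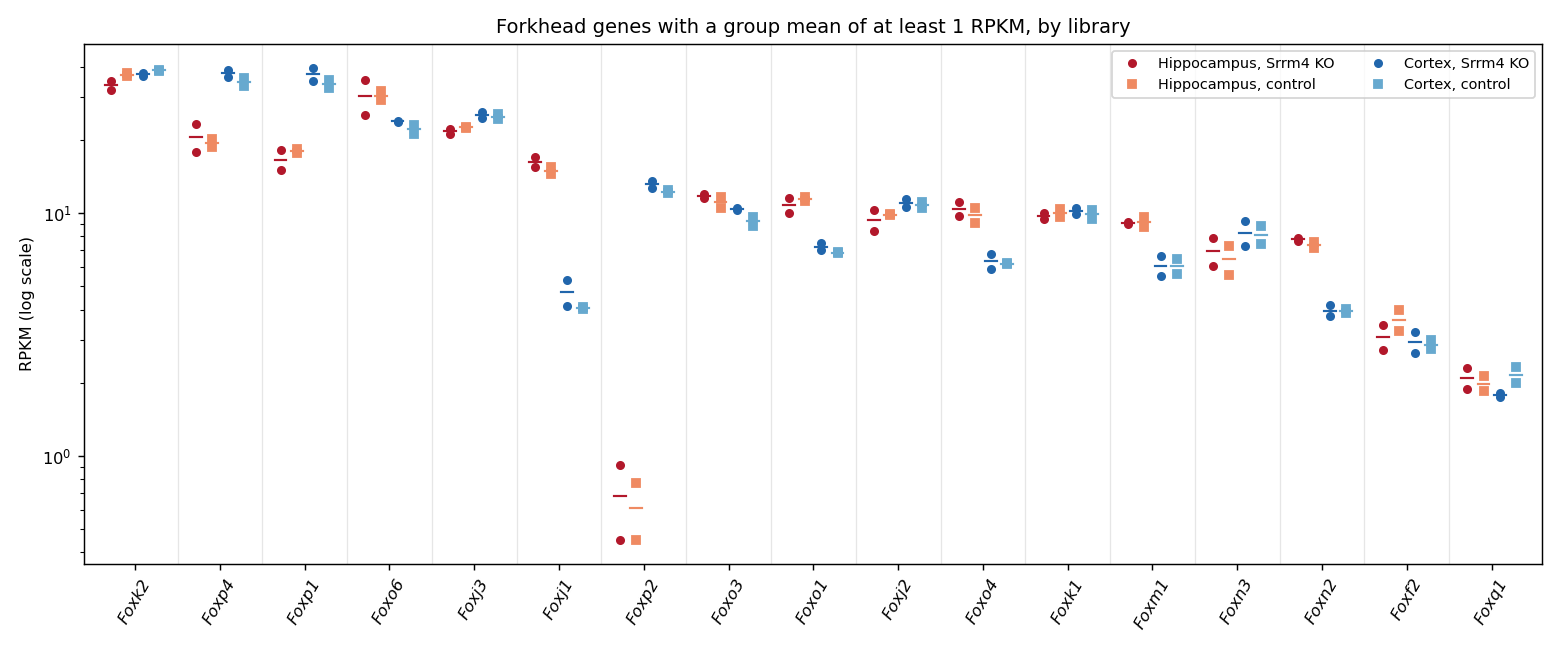
Level in RPKM (log axis) of 17 of the 18 forkhead genes with a mean of at least 1 RPKM in any group; points are libraries, short lines are means of 2 libraries, circles are KO and squares are controls. Foxk2 lies between 32.15 and 38.71 RPKM in all libraries, Foxp2 falls below 1 RPKM in the 4 hippocampal libraries, and KO and control points of a tissue lie close together.

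Hippocampus and cortex differed in many members, in KO and in control mice alike. By edgeR's quasi-likelihood test with Benjamini-Hochberg adjustment over 16111 genes and a threshold of 0.05, 14 of the 29 tested members differed in KO mice, 6 higher and 8 lower in hippocampus, where 40% of all tested genes did (21.2% higher and 18.8% lower). In controls 12 differed, 7 higher and 5 lower, where 33.9% of all tested genes did (19% higher and 14.9% lower). The members' shares, 48.3% in KO and 41.4% in controls, were thus not far from the background. There were 11 members past the threshold in both genotypes, all in the same direction. Foxj2, Foxk2 and Foxr2 passed in KO alone and Foxf1 in controls alone, but the test of the difference between genotypes called no member. In RPKM, hippocampal libraries lay wholly above cortical ones for 12 members and wholly below for 8 in KO, where 45.4% and 23% of all genes did, and for 14 and 9 in controls, where 43.1% and 25.1% did. The median log2 fold change of hippocampus over cortex was 0.07 in KO and -0.03 in controls over the 29 members, against 0.03 and 0.01 over all genes tested.

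**Figure D2:**
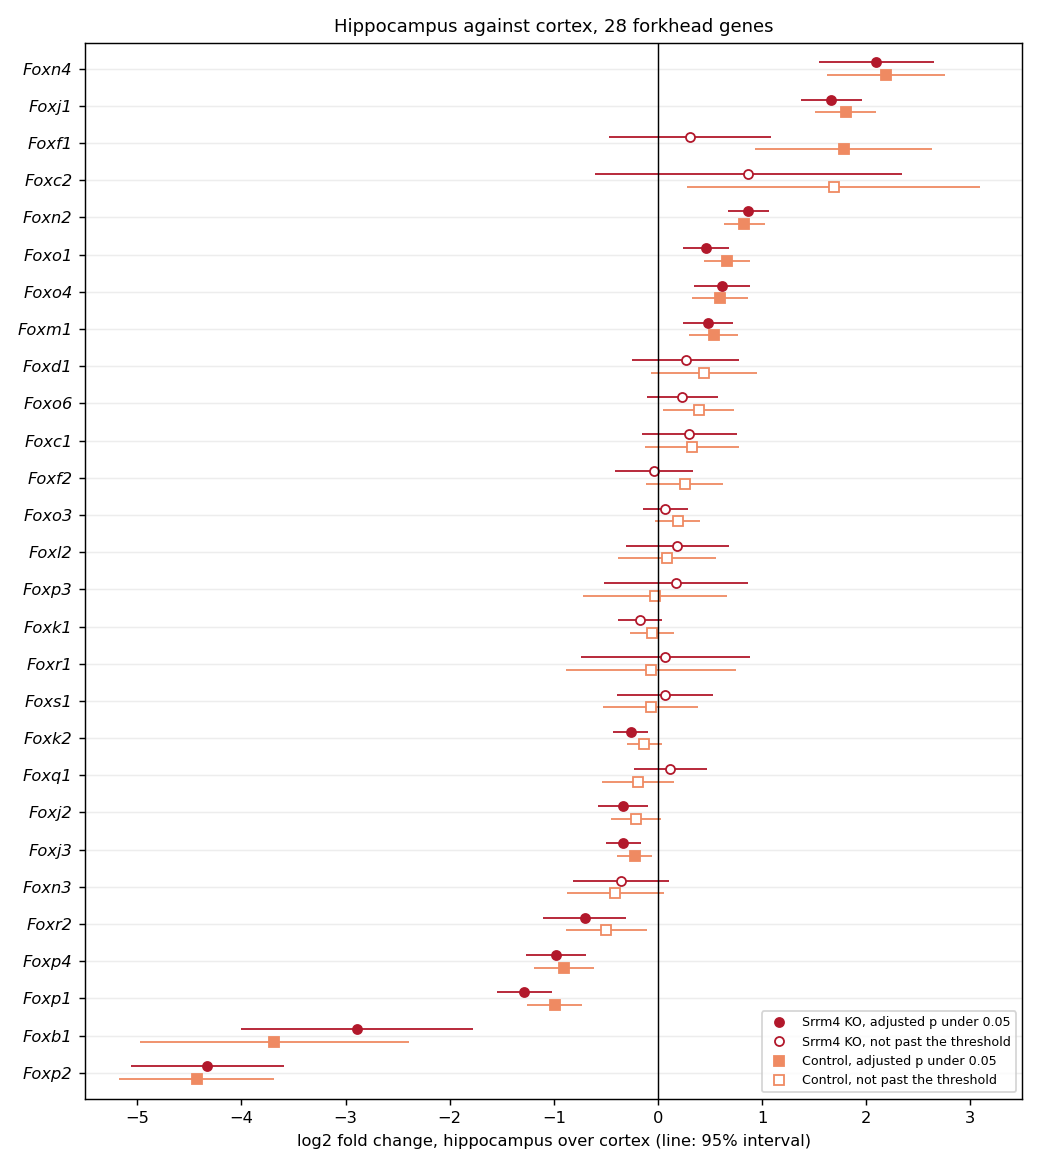
log2 fold change of hippocampus over cortex for 28 of the 29 forkhead genes tested, in KO mice (circles) and controls (squares), 2 libraries a group; lines are 95% intervals and filled symbols passed an adjusted p of 0.05. Foxn4 and Foxj1 lie farthest to the right and Foxb1 and Foxp2 farthest to the left, with both genotypes on the same side.

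Of the 4 FoxP genes, Foxp1, Foxp2 and Foxp4 were lower in hippocampus and Foxp3 did not pass, and Foxp2 had the largest tissue difference of all members in both genotypes. Foxp2, which marks layer 6 neurons of the cortex and neurons of the striatum and is tied to speech in humans, had 0.92 and 0.45 RPKM in KO hippocampus and 13.57 and 12.70 RPKM in KO cortex. In controls it had 0.45 and 0.77 RPKM in hippocampus and 12.04 and 12.43 RPKM in cortex. No hippocampal library came near a cortical one. On the log2 scale Foxp2 was lower in hippocampus by edgeR, at -4.33 ± 0.32 in KO (SE; adjusted p = 3.55e-05) and -4.43 ± 0.32 in controls (adjusted p = 3.62e-05). The 2 hippocampal libraries with the higher values were KO replicate 1, which had the highest mitochondrial share, and control replicate 2, which had 1.36 RPKM of the striatal marker Isl1 where the other hippocampal libraries had 0.18 to 0.29 RPKM. Without KO replicate 1 the KO value was -4.95, and without control replicate 2 the control value was -4.82.

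Foxp1, a close relative that is expressed in upper and middle cortical layers and in striatal and hippocampal CA1 neurons, had 14.99 and 18.06 RPKM in KO hippocampus, against 39.60 and 35.00 RPKM in KO cortex. In controls it had 17.62 and 18.30 RPKM in hippocampus and 35.17 and 32.66 RPKM in cortex. The tissues did not overlap, and the log2 fold change was -1.28 ± 0.12 in KO (adjusted p = 9.61e-05) and -0.99 ± 0.11 in controls (adjusted p = 0.00037, edgeR). Foxp4 had 17.76 and 23.14 RPKM in KO hippocampus, against 36.36 and 38.62 RPKM in KO cortex. Its control values were 18.73 and 20.18 RPKM in hippocampus and 35.91 and 33.12 RPKM in cortex, again with no overlap. The log2 fold change of Foxp4 was -0.98 ± 0.12 in KO and -0.90 ± 0.12 in controls (adjusted p = 0.000517 and 0.00086, edgeR). Summed FoxP levels were 33.8 and 41.7 RPKM in KO hippocampus, against 89.6 and 86.4 RPKM in KO cortex, and Foxp2 was 1.08% to 2.72% of that sum in all hippocampal libraries and 14.5% to 15.9% in all cortical ones. Foxp3, the factor of regulatory T cells, stayed at 0.09 to 0.15 RPKM in all libraries. The T cell genes Cd3e and Ctla4, from a list of 7, had at most 0.01 RPKM. The whole list summed to 1.41 to 2.07 RPKM over all libraries. Of its 4 genes tested, 1 was higher in hippocampus in KO and 1 lower in controls.

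Striatal and layer 6 markers moved with the FoxP genes. All 14 striatal markers were lower in hippocampus in both genotypes, with a median log2 fold change of -3.54 in KO and -3.49 in controls. Of 10 layer 6 and subplate markers tested, 7 were lower and 3 higher in both genotypes, and their summed level was 157 to 174 RPKM in hippocampus and 253 to 261 RPKM in cortex. How much of the FoxP difference comes with the striatal RNA in the cortex libraries was not tested. Among 15 known partners and targets of FoxP factors, 2 were higher and 5 lower in hippocampus in KO, and 3 higher and 5 lower in controls. Tbr1, a cortical partner of FoxP2 that is also on the layer 6 list, had a log2 fold change of -1.26 in KO and -1.30 in controls. Mef2c, a target of FoxP2 in striatal neurons, had -2.59 in KO and -3.03 in controls, and Vldlr, a reelin receptor, had -0.71 in KO and -0.63 in controls.

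**Figure D3:**
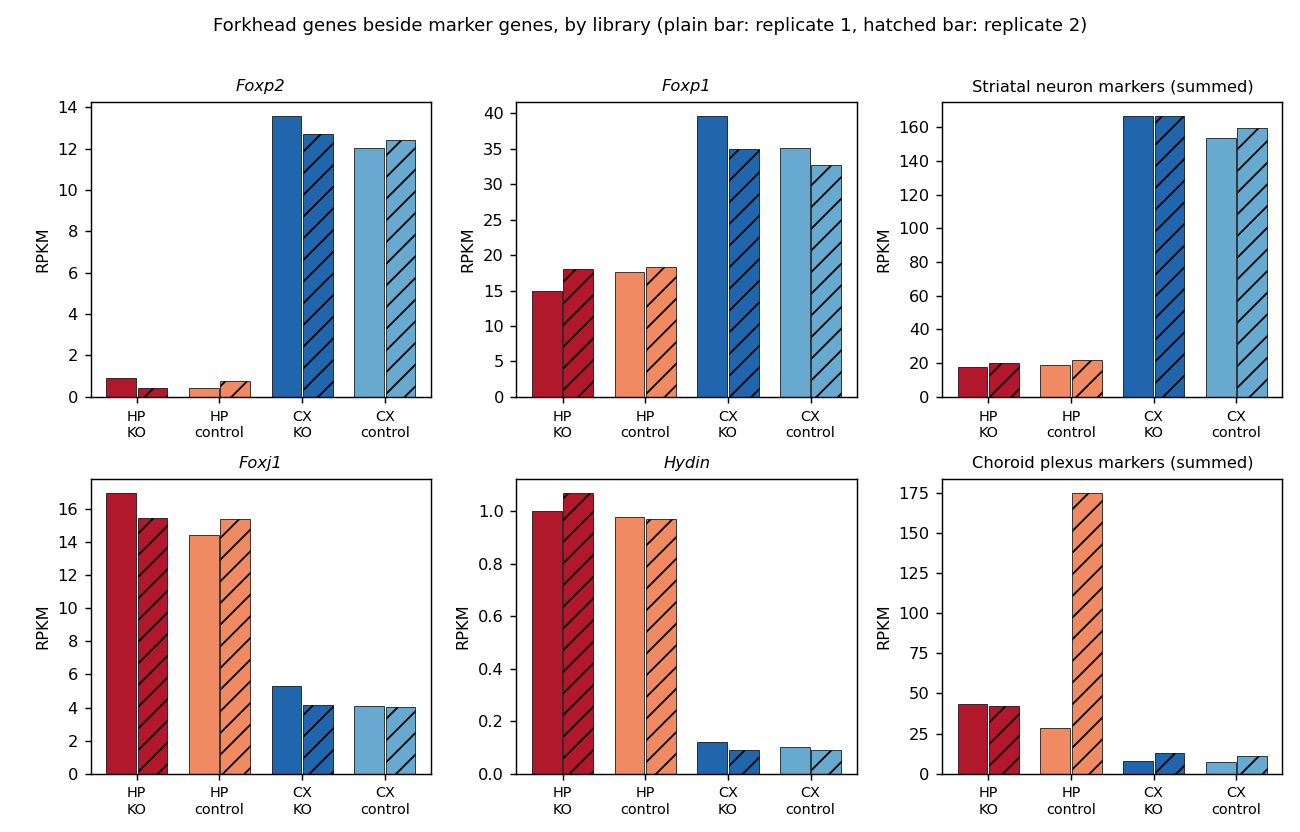
RPKM by library of Foxp2, Foxp1 and the sum of 14 striatal markers (top) and of Foxj1, the cilia gene Hydin and the sum of 10 choroid plexus markers (bottom), for hippocampus (HP) and cortex (CX); plain bars are replicate 1 and hatched bars replicate 2. Foxp2, Foxp1 and striatal markers are high in all 4 cortex libraries, Foxj1 and Hydin in all 4 hippocampal ones, and control hippocampus replicate 2 has 175 RPKM of choroid plexus markers beside 15.39 RPKM of Foxj1.

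Genes of the cortical hem, which borders the developing hippocampus, and of Cajal-Retzius cells were higher in hippocampus: 16 of 18 rose and 1 fell in each genotype, with a median log2 fold change of 1.97 in KO and 2.01 in controls. Rspo1, an enhancer of Wnt signalling, had a log2 fold change of 4.19 in KO and 3.81 in controls. Wnt5a, a hem Wnt ligand, had 2.30 in KO and 2.21 in controls, and Trp73, the p53 relative of Cajal-Retzius cells, had 2.22 in KO and 2.14 in controls. The gene that fell was Ebf2, a factor of Cajal-Retzius cells, at -2.35 in KO and -2.59 in controls.

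Of the 4 FoxO genes, Foxo1 and Foxo4 were higher in hippocampus in both genotypes, and Foxo3 and Foxo6 did not pass. Foxo1, a mediator of insulin and growth factor signals, had 9.97 and 11.54 RPKM in KO hippocampus, against 7.50 and 7.01 RPKM in KO cortex. Its control values were 11.63 and 11.22 RPKM in hippocampus and 6.82 and 6.88 RPKM in cortex, with no overlap between tissues. Its log2 fold change was 0.46 ± 0.10 in KO and 0.67 ± 0.10 in controls (adjusted p = 0.00608 and 0.00106, edgeR). Foxo4 had 9.72 and 11.08 RPKM in KO hippocampus, against 5.86 and 6.75 RPKM in KO cortex. Control libraries had 10.43 and 9.11 RPKM of Foxo4 in hippocampus and 6.20 and 6.15 RPKM in cortex. Foxo4 too was higher in every hippocampal library, by 0.62 ± 0.12 in KO and 0.59 ± 0.12 in controls on the log2 scale (adjusted p = 0.00399 and 0.00534).

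Foxo3, the FoxO member best known for stem cell quiescence and stress responses, did not pass, with 10.44 to 11.95 RPKM in hippocampus and 8.85 to 10.48 RPKM in cortex. Foxo6, the FoxO member most restricted to the brain, was the most abundant of the 4. It had 25.32 and 35.06 RPKM in KO hippocampus and 31.60 and 29.20 RPKM in control hippocampus, against 23.95 and 23.72 RPKM in KO cortex and 22.93 and 21.20 RPKM in control cortex. Every hippocampal library lay above every cortical one, but the log2 fold changes of 0.23 in KO and 0.39 in controls did not pass (adjusted p = 0.246 and 0.0764, edgeR). Leaving out KO hippocampus replicate 1 brought Foxo6 past the threshold in both genotypes, at 0.47 in KO (adjusted p = 0.0153) and 0.39 in controls (adjusted p = 0.012). Without KO hippocampus replicate 2 its KO value was -0.04.

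Of 18 insulin and Akt inputs of FoxO, 2 were higher and 4 lower in hippocampus in KO, and 2 higher and none lower in controls. Called or not, 16 of the 18 had a log2 fold change below 0 in KO, against 7507 of all 16111 genes tested. In controls 14 did, against 7749. The list medians were -0.16 in KO and -0.12 in controls. The 2 higher ones were Akt2, a kinase that phosphorylates FoxO factors, at 0.67 in KO and 0.73 in controls, and Irs1, an insulin receptor substrate, at 0.96 in KO and 1.11 in controls. Pik3cb, a catalytic subunit of PI3 kinase, was lower in KO at -0.35 and had -0.22 in controls. Known FoxO targets were split, with 5 higher and 6 lower of 18 in KO and 4 higher and 6 lower in controls. Bcl6, a transcriptional repressor with cortical roles, had -1.68 in KO and -1.65 in controls. Klf6, an immediate early factor, had -1.04 in KO and -0.98 in controls. Bcl2l11, which encodes the death protein Bim, had 0.97 in KO and 1.03 in controls.

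Foxj1 was the abundant member with the largest rise in hippocampus. It had 16.96 and 15.45 RPKM in KO hippocampus, against 5.29 and 4.15 RPKM in KO cortex. In controls it had 14.41 and 15.39 RPKM in hippocampus and 4.10 and 4.01 RPKM in cortex. The groups were far apart, by 1.67 ± 0.13 in KO and 1.80 ± 0.13 in controls on the log2 scale (adjusted p = 4.04e-05 and 3.15e-05, edgeR). Of 19 genes of motile cilia, 15 were higher in KO and 14 in controls and none lower, with a median of 1.40 in KO and 1.35 in controls. Hydin, a protein of the ciliary central pair, had 1.00 and 1.07 RPKM in KO hippocampus, against 0.12 and 0.09 RPKM in KO cortex. Its log2 fold change was 3.18 in KO and 3.28 in controls. The dynein chain gene Dnah9 had 1.62 in KO and 1.54 in controls, and Rfx2, a factor that acts with FoxJ1 on cilia genes, 1.60 in KO and 1.54 in controls.

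Choroid plexus and ependyma also carry motile cilia and Foxj1. Choroid plexus markers were higher in hippocampus for 4 of 10 in KO and 7 of 10 in controls, none lower. Ttr, their most abundant product, had 24.09 and 26.83 RPKM in KO hippocampus and 13.42 and 152.38 RPKM in control hippocampus, against 0.60 and 6.68 RPKM in KO cortex and 0.49 and 4.26 RPKM in control cortex. Control hippocampus replicate 2, with the most Ttr, had 15.39 RPKM of Foxj1, and replicate 1 had 14.41 RPKM. Without replicate 2 the control log2 fold change of Foxj1 was 1.78. Summed choroid plexus markers were at 28.4 to 43.4 RPKM in the other hippocampal libraries, against 7.4 to 12.9 RPKM in cortex. Their part in the Foxj1 difference was not tested.

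The other FoxJ genes moved little. Foxj3, a broadly expressed factor studied in muscle and testis, had 21.10 and 22.23 RPKM in KO hippocampus and 22.28 and 22.62 RPKM in control hippocampus, against 25.98 and 24.62 RPKM in KO cortex and 25.42 and 24.38 RPKM in control cortex. Its log2 fold changes were -0.33 in KO and -0.22 in controls (adjusted p = 0.00851 and 0.0481, edgeR). The control call was lost in 11 of 16 alternative settings, with an adjusted p up to 0.282, among them those without either library of control hippocampus, KO cortex or control cortex. The KO call was lost without replicate 1 of KO hippocampus or of KO cortex. Foxj2 had 8.39 and 10.26 RPKM in KO hippocampus, against 10.53 and 11.37 RPKM in KO cortex. It passed in KO at -0.34 (adjusted p = 0.0337) and not in controls at -0.21 (adjusted p = 0.165) by edgeR. The KO call was lost in 9 of 16 settings, with an adjusted p up to 0.151: without KO hippocampus replicate 1, either control hippocampus library, either KO cortex library or control cortex replicate 2, in both limma fits and in the fit of the 4 KO libraries alone.

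Foxm1, the activator of mitotic genes, had 8.99 and 9.15 RPKM in KO hippocampus, against 5.47 and 6.64 RPKM in KO cortex. Control libraries held 8.73 and 9.62 RPKM in hippocampus and 5.58 and 6.47 RPKM in cortex. Hippocampus was higher in all libraries, by 0.48 ± 0.10 in KO and 0.54 ± 0.10 in controls on the log2 scale (adjusted p = 0.00727 and 0.00471, edgeR). Mitotic genes linked to FoxM1 moved with it: 17 of 18 were higher and none lower in each genotype, with a median of 0.79 in KO and 0.78 in controls. Ccnb1, the mitotic cyclin, had 21.19 and 18.02 RPKM in KO hippocampus and 19.22 and 19.50 RPKM in control hippocampus, against 10.49 and 10.43 RPKM in KO cortex and 9.54 and 11.28 RPKM in control cortex. The spindle checkpoint kinase Bub1b had a log2 fold change of 0.82 in KO and 0.85 in controls. Cdk1 and Aurka, kinases of mitotic entry, had 0.97 and 0.80 in KO and 0.87 and 0.77 in controls, and Plk1, a further mitotic kinase, had 0.64 in KO and 0.74 in controls. Pan-neuronal markers were lower at the same time, 6 of 6 in KO and 3 of 6 in controls. Whether a smaller neuronal share bears on the Foxm1 difference was not tested.

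**Figure D4:**
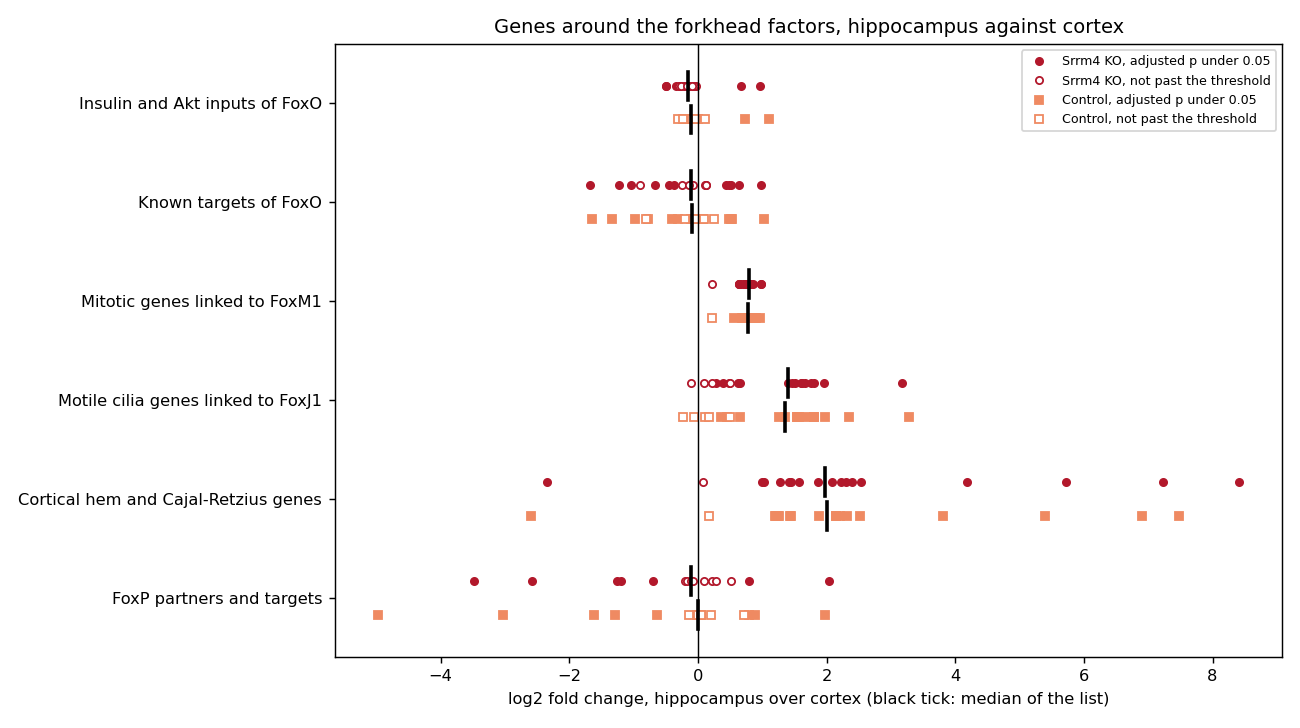
log2 fold change of hippocampus over cortex for each tested gene of 6 lists around the forkhead factors, in KO mice (circles) and controls (squares); filled symbols passed an adjusted p of 0.05 and black ticks are list medians. Mitotic, cilia and cortical hem genes lie to the right, with medians of 0.79, 1.40 and 1.97 in KO. KO medians are -0.16 for the insulin and Akt inputs, -0.11 for FoxO targets and -0.11 for FoxP partners and targets.

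FoxN genes differed among themselves. Foxn2 had 7.88 and 7.68 RPKM in KO hippocampus, against 3.76 and 4.16 RPKM in KO cortex. In controls it had 7.58 and 7.15 RPKM in hippocampus and 4.02 and 3.87 RPKM in cortex, so the tissues stood well apart. The log2 fold change was 0.87 ± 0.09 in KO and 0.83 ± 0.09 in controls (adjusted p = 0.000149 and 0.000209, edgeR). Foxn4, a progenitor factor of retinal and spinal interneurons, was low throughout, with 0.60 and 0.64 RPKM in KO hippocampus and 0.52 and 0.62 RPKM in control hippocampus, against 0.16 and 0.10 RPKM in KO cortex and 0.11 and 0.13 RPKM in control cortex. At that low level its difference was nonetheless large, at 2.10 ± 0.24 in KO and 2.19 ± 0.25 in controls (adjusted p = 0.000318 and 0.000319). Foxn3, a checkpoint-related repressor, had 7.89 and 6.06 RPKM in KO hippocampus and 7.33 and 5.53 RPKM in control hippocampus, against 9.24 and 7.31 RPKM in KO cortex and 8.84 and 7.43 RPKM in control cortex. In Foxn3 the replicate 1 library, the deeper one, was higher in all 4 groups. The Foxn3 log2 fold changes of -0.36 in KO and -0.41 in controls did not pass (adjusted p = 0.198 and 0.159, edgeR). Both passed in a fit that also held the replicate number, but the labels do not pair the samples by that number.

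The FoxK genes, repressors of autophagy and starvation genes in muscle, spanned a narrow range of levels. Foxk2 had 32.15 and 34.73 RPKM in KO hippocampus and 36.62 and 37.46 RPKM in control hippocampus, against 37.80 and 36.70 RPKM in KO cortex and 38.71 and 38.39 RPKM in control cortex. It passed in KO at -0.26 ± 0.07 (adjusted p = 0.022) and not in controls at -0.13 (adjusted p = 0.21, edgeR). The KO call was lost in 7 of 16 settings, with an adjusted p up to 0.152, among them those without KO hippocampus replicate 1, control hippocampus replicate 2, KO cortex replicate 1 or control cortex replicate 2. Foxk1 stayed between 9.45 and 10.50 RPKM in all 8 libraries.

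Members of mesenchyme, vessels and meninges were low and mostly alike between tissues. Foxf2, a factor of brain pericytes, had 2.72 and 3.45 RPKM in KO hippocampus and 3.25 and 3.98 RPKM in control hippocampus, against 2.64 and 3.24 RPKM in KO cortex and 2.74 and 3.0 RPKM in control cortex. Foxq1, a factor of brain endothelium, ranged from 1.74 to 2.32 RPKM over all libraries, and neither passed. Foxc1, required in meninges and pericytes, had 0.80 to 1.05 RPKM in hippocampus and 0.60 to 0.85 RPKM in cortex and did not pass. Foxs1, a pericyte gene, stayed at 0.60 to 0.83 RPKM, Foxl2 at 0.24 to 0.37 RPKM and Foxd1, a stromal and pericyte-lineage factor, at 0.16 to 0.26 RPKM, with no call in either genotype. Foxc2, a lymphatic and mesenchymal factor, had 22 and 4 counts in KO hippocampus and 33 and 8 counts in control hippocampus, against 9 and 5 counts in KO cortex and 6 and 6 counts in control cortex, and did not pass. Foxf1, a factor of lung and gut mesenchyme, had 28 and 12 counts in KO hippocampus and 27 and 24 counts in control hippocampus, against 22 and 11 counts in KO cortex and 9 and 6 counts in control cortex. It passed in controls at 1.78 ± 0.37 (adjusted p = 0.00685, edgeR) and had 0.31 in KO (adjusted p = 0.505). The control call was lost without control cortex replicate 1 (1.58, adjusted p = 0.0812). Meningeal markers were higher in hippocampus beside these genes, for 8 of 10 in each genotype with 1 lower in controls, and their summed level was 25.2 to 38.6 RPKM in hippocampus and 14.3 to 15.3 RPKM in cortex. Their part in the Foxf1 value was not tested.

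Of the members tied to the ventral midline, diencephalon, endoderm, placodes and germ line, 3 of 15 could be tested. Foxb1, a factor of the mammillary body and thalamus, had 5 and 1 counts in KO hippocampus and 2 and 1 counts in control hippocampus, against 28 and 18 counts in KO cortex and 24 and 17 counts in control cortex. Relative to total counts, the pooled ratio of hippocampus to cortex was 0.146 in KO (95% interval 0.051 to 0.343) and 0.0774 in controls (0.0153 to 0.243), by exact intervals that cover counting error only. Foxb1 passed in both genotypes, with log2 fold changes of -2.89 in KO and -3.68 in controls (adjusted p = 0.00216 and 0.00144, edgeR). Without KO hippocampus replicate 1, which had 5 of the 6 KO hippocampus counts, the KO value was -3.75 (adjusted p = 0.0138). Of 10 thalamic and hypothalamic markers tested, 6 were lower and 1 higher in KO and 5 lower and 1 higher in controls, while their summed level was 24.1 and 25.1 RPKM in KO hippocampus, against 16.4 and 11.02 RPKM in KO cortex. Most of the hippocampal sum was Lhx9, the marker that was higher, named after its values were seen, with 19.29 and 20.98 RPKM in KO hippocampus, against 1.62 and 1.63 RPKM in KO cortex. Their part in the Foxb1 difference was not tested. Foxr2, a stabiliser of Myc proteins in tumours, had 0.25 and 0.26 RPKM in KO hippocampus, against 0.39 and 0.37 RPKM in KO cortex. It passed in KO at -0.71 ± 0.17 (adjusted p = 0.0127), though not without KO cortex replicate 1 (-0.64, adjusted p = 0.0814) or KO hippocampus replicate 1 (-0.66, adjusted p = 0.0667). In controls its value was -0.49 (adjusted p = 0.0558). Foxr1, a relative of Foxr2, ranged from 0.32 to 0.73 RPKM over all libraries and did not pass.

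The 14 members that were not tested were Foxa1, Foxa2 and Foxa3, the pioneer factors of endoderm and floor plate, Foxb2, Foxd2, Foxd3, Foxd4, Foxe1, Foxe3, Foxh1, Foxi1, Foxi2, Foxi3 and Foxn1. Foxb2 had 1 and 0 counts in KO hippocampus and 1 and 0 counts in control hippocampus, against 8 and 3 counts in KO cortex and 2 and 0 counts in control cortex. A count of 0 allows up to 3 counts in a library, which is 0.0214 to 0.0515 CPM (counts scaled to library depth), by counting error only.

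The comparison of KO with control addressed whether loss of Srrm4 changes the level of these genes. No member passed in either tissue. In hippocampus 0 of 29 members were called by edgeR, where 0.0248% of all tested genes were (0.0124% higher and 0.0124% lower), and in cortex 0 of 29, where 0.0186% were (0.0124% higher and 0.00621% lower). Over both tissues together 0 were called, where 0.0621% of all tested genes were (0.0372% higher and 0.0248% lower), and the test of a different KO effect in hippocampus than in cortex called 0 members and 0% of all genes. At an unadjusted p under 0.05 by edgeR there was 1 of 29 members in hippocampus, against 614 of all 16111 genes tested. In cortex there was 1 member, against 183 genes. Over both tissues there were 0, against 713, and for the difference 1, against 158. In every comparison the share of all genes was below the 0.05 that evenly spread p-values would give. These tests were thus cautious, and a lack of calls does not show a lack of change. DESeq2 also called 0 members in each comparison. For the 18 members that reached 1 RPKM, log2 fold changes of KO over control lay between -0.26 and 0.21 in hippocampus and between -0.27 and 0.23 in cortex. The outermost bounds of their 95% intervals were -0.63 and 0.92 in hippocampus and -0.61 and 0.73 in cortex, and larger changes than these fall outside the interval of every such member.

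**Figure D5:**
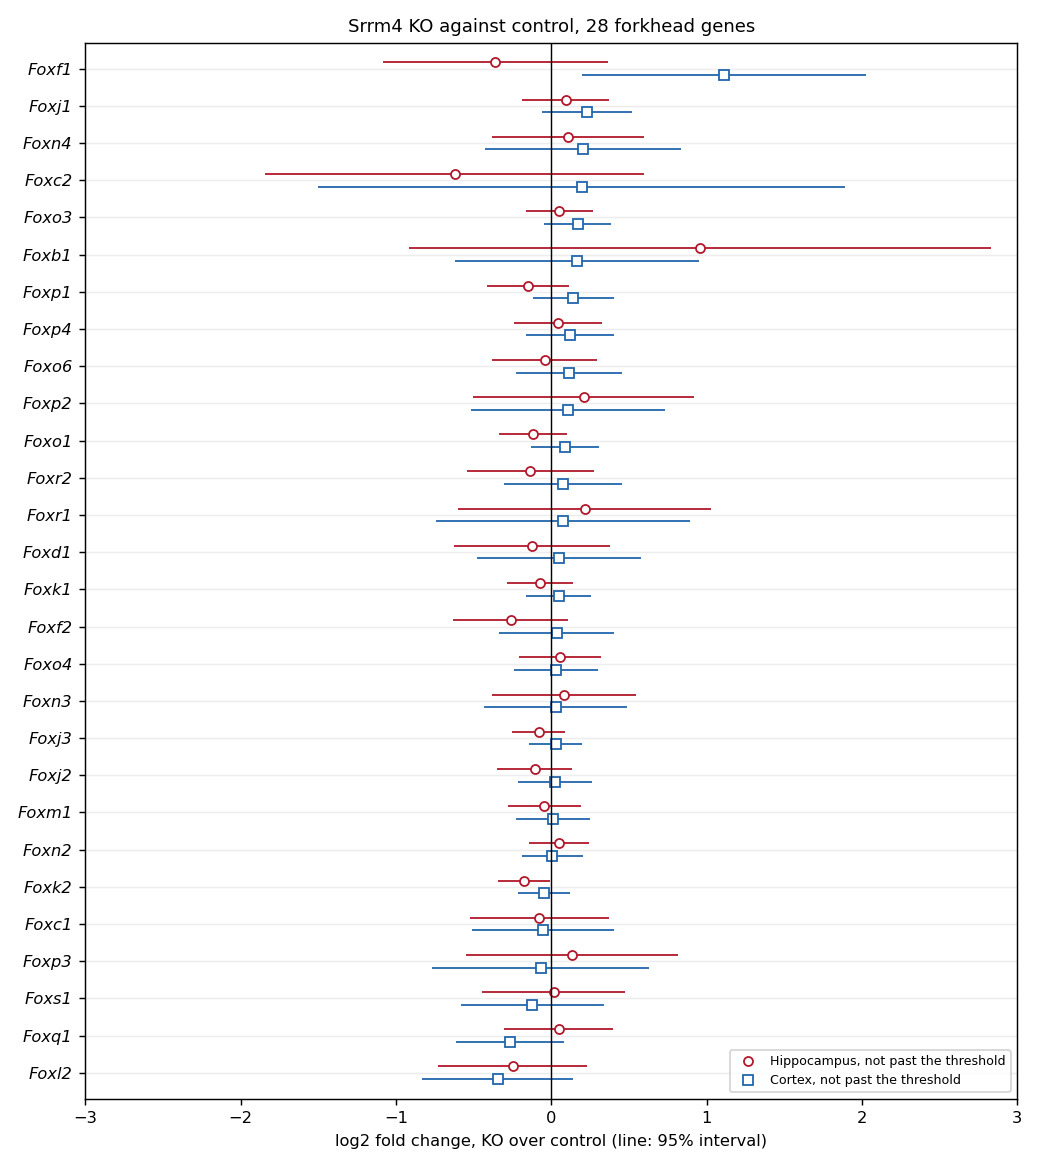
log2 fold change of KO over control for 28 of the 29 forkhead genes tested, in hippocampus (circles) and cortex (squares), 2 libraries a group; lines are 95% intervals and open symbols did not pass an adjusted p of 0.05. All symbols are open, and the widest intervals belong to Foxb1 and Foxc2, which had 96 and 93 counts over all 8 libraries.

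By edgeR, the members with the smallest p in hippocampus were Foxk2 at -0.18 (95% interval -0.34 to -0.01), Foxf2 at -0.26 (-0.63 to 0.11) and Foxp1 at -0.15 (-0.41 to 0.11), all with an adjusted p of 0.992. Both KO hippocampus libraries of Foxk2, at 32.15 and 34.73 RPKM, lay below both control ones, at 36.62 and 37.46 RPKM. The Foxp1 value rested on KO replicate 1, without which it was 0.0033. In cortex they were Foxf1 at 1.11 (0.20 to 2.03), Foxj1 at 0.23 (-0.06 to 0.52) and Foxo3 at 0.17 (-0.04 to 0.38), all with an adjusted p of 1. Foxf1 had 33 counts in KO cortex and 15 counts in control cortex in all, a ratio to total counts of 2.18 with an exact 95% interval for counting error of 1.15 to 4.32. Both KO cortex libraries lay above both controls in Foxj1, at 5.29 and 4.15 against 4.10 and 4.01 RPKM, with a gap between the groups that was smaller than that between the KO libraries.

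Over both tissues, in a model of tissue and genotype, the smallest p belonged to Foxl2, a factor of the ovary and pituitary, at -0.30 (-0.61 to 0.02), Foxk2 at -0.11 (-0.23 to 0.01) and Foxj1 at 0.16 (-0.03 to 0.35), each with an adjusted p of 1.00. For the difference of the KO effect between hippocampus and cortex it was Foxf1 at -1.47 (-2.64 to -0.31), Foxp1 at -0.29 (-0.66 to 0.08) and Foxo1 at -0.21 (-0.52 to 0.10), again with an adjusted p of 1.00. In RPKM, KO libraries lay wholly above controls for 2 members and wholly below for 3 in hippocampus, where 15.3% and 11.8% of all genes did, which is 6.9% and 10.3% of the 29. In cortex they lay above for 7 and below for 3, or 24.1% and 10.3%, where 9.64% and 11% of all genes did. Over both tissues together no member had all KO libraries above or all below the controls, where 0.435% and 0.416% of all genes did. That comparison pooled the tissues without regard to their difference. A member that differed more by tissue than by genotype, such as Foxp2, overlapped in any case, so it says nothing about the KO there. The 7 in cortex were Foxp4, Foxp2, Foxj1, Foxf1, Foxo1, Foxo3 and Foxo6. Called or not, 23 of the 29 members had a log2 fold change of KO over control above 0 in cortex, against 8007 of all 16111 genes tested. In hippocampus 14 did, against 7831.

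None of the 6 lists of genes around the family had a called gene between KO and control in hippocampus, in cortex or over both tissues, by edgeR. Their median log2 fold changes of KO over control in hippocampus ran from -0.09 for the insulin and Akt inputs to 0.12 for the hem and Cajal-Retzius genes. In cortex they ran from -0.02 for the FoxP partners and targets to 0.08 for the hem and Cajal-Retzius genes. The medians of all genes tested were -0.00 in both tissues. Motile cilia genes had a median of 0.09 in hippocampus and 0.02 in cortex, and mitotic genes -0.01 in hippocampus and 0.00 in cortex, in lists that separated the tissues by medians of 1.40 and 0.79 in KO mice.

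The 3 most abundant genes of each list give the size of these differences, with an adjusted p of at least 0.992 throughout (edgeR). Among the insulin and Akt inputs these were the 14-3-3 genes Ywhag, Ywhaz and Ywhab, whose proteins hold phosphorylated FoxO in the cytoplasm. Their log2 fold changes of KO over control were -0.28, -0.18 and -0.20 in hippocampus and -0.02, -0.03 and -0.03 in cortex. In hippocampus, Ywhag had 266.89 and 329.57 RPKM in KO, against 378.71 and 328.17 RPKM in controls, and Ywhab had 189.68 and 218.48 RPKM in KO, against 232.59 and 225.72 RPKM in controls. KO replicate 1 was the lowest library in both genes. Of the FoxO targets, the cyclin gene Ccng2 had 0.04 in hippocampus and 0.02 in cortex, the mitophagy kinase gene Pink1 -0.02 and 0.04, and the catalase gene Cat -0.07 and 0.02. Proliferation genes lay as close to 0, with the topoisomerase gene Top2a at 0.01 in hippocampus and -0.05 in cortex, Mki67 at -0.01 and -0.03, and Ccnb1 at -0.01 and 0.01. For cilia, the radial spoke gene Rsph9 had 0.05 in hippocampus and -0.05 in cortex, Rfx3, a regulator of ciliogenesis, 0.09 and 0.05, and the axonemal gene Ccdc39 0.13 and -0.15. Reln, the signal released by Cajal-Retzius cells, had 0.10 in each tissue, and Calb2, a marker of these cells, 0.0037 in hippocampus and 0.07 in cortex. Cacna2d2, a calcium channel subunit gene, had -0.0022 in hippocampus and 0.09 in cortex. Among the FoxP partners and targets, the corepressor gene Ctbp1 had -0.13 in hippocampus and 0.03 in cortex, and the patterning factor gene Nr2f1 0.06 and -0.02. Mef2c had 24.04 and 12.79 RPKM in KO hippocampus, against 13.94 and 13.32 RPKM in control hippocampus, so that its value of 0.40 in hippocampus rested on KO replicate 1, and it had -0.04 in cortex.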

How the data were processed

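RNA of 12 samples was analysed in 8 deposited tables, since the 2 runs of each replicate 1 share a table and count as 1 library. Per the labels' protocols, mRNA was isolated with Tri Reagent and sequenced from Illumina TruSeq libraries. Per the submitters' processing notes, Bowtie (no version) and build mm9 were used, with the counting rule, strand setting and annotation not given in the sources used here. The authors deposited a read count and an RPKM value per Ensembl gene ID; RPKM, scaled by gene length and depth, served as a descriptive value.

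Symbols were matched for 20759 of 22667 IDs. Counts were tested with edgeR 4.0.16 in R 4.3.3: TMM scaling, filterByExpr (minimum count 10), glmQLFit and glmQLFTest, Benjamini-Hochberg adjustment over 16111 genes, threshold 0.05. Models had 4 group means, or tissue and genotype together. Standard errors and 95% intervals came from the same fit. limma 3.58.1 on log2(RPKM + 1) or log2(RPKM + 0.1) and DESeq2 1.42.0 were alternatives, as were other filters and scalings, a replicate block and leaving out each library. Fits were tested on simulated data. Replicate libraries differed beyond counting noise, with a chi-square of 30.9 to 63.3 per degree of freedom. Helix runs came from GENCODE M21 protein-coding transcripts, used for sequence only. Members reaching 1 RPKM in a group and members past the threshold were described singly, in the KO comparisons the 3 with the smallest p, and from each list the 3 called genes with the smallest p or, where none was called, the 3 most abundant. The members and lists were chosen with earlier results of these data known. Some genes and sequences are not reported here, though counts and sums over the family include every member.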

Additional observations from a re-analysis of the deposited data

How the results depend on the processing

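The count of forkhead genes that differed between hippocampus and cortex stayed within 1.5 times the reported one in every setting tried: 10 to 16 in KO and 8 to 15 in controls, and 10 to 15 in KO and 10 to 14 in controls when 1 library was left out at a time. The count for KO against control was 0 in every setting, in each tissue, over both and for the difference. With genes of at least 1 RPKM in 2 libraries alone, 19 members were tested, and 11 differed in KO and 8 in controls. Over 849 refits of single members, 796 kept their direction and side of the threshold, 32 lost a call, 10 gained one and 11 turned sign; the cause was not tested. The turned values were all uncalled. For Foxp1, KO against control in hippocampus, values ran from -0.31 to 0.0033 over left-out libraries. For hippocampus against cortex in controls, Foxk1 had 0.0174 and 0.0189 in the limma fits (pseudocounts 1 and 0.1) and -0.14 to 0.0238 over left-out libraries. For hippocampus against cortex in KO, Foxf2 had 0.0506 and 0.0647 in these limma fits and -0.23 to 0.15 over left-out libraries, where Foxq1 ran from -0.045 to 0.28 and Foxo6 from -0.0391 to 0.47.

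With the replicate number as a block, 16 members differed between hippocampus and cortex in KO and 15 in controls, and 0 between KO and control. The numbers do not pair the samples by the labels: deviations of same-numbered libraries correlated at 0.0978 to 0.381, with only 2 numbers. The calls it added included Foxn3 in both genotypes and Foxc2 and Foxr2 in controls. Depth limits low members such as Foxb1 and Foxc2, with 96 and 93 counts over all libraries.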
